A study of Homo sapiens with 19 samples.

Results

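The marking of 10 monocyte receptor and receptor-subunit genes by H3K27ac, the acetylated form of lysine 27 on histone H3, was examined in 4 human leukaemia cell lines. They were chosen by name as genes through whose products monocytes recognise microbes, immune complexes and chemokines, and all 10 were found in the GENCODE annotation of the hg38 assembly, among 20033 protein-coding genes. The members are CD14, TLR2, TLR4, TLR8, FCGR1A, FCGR2A, FCER1G, TYROBP, CLEC7A and CX3CR1. The study asked whether endogenous retroviruses act as enhancers in acute myeloid leukaemia (AML), and it profiled H3K27ac by chromatin immunoprecipitation and sequencing in lines used as models of the disease. Of these lines, HL-60, Molm13 and OCI-AML3 were established from AML and K562 from a blast crisis of chronic myeloid leukaemia. HL-60 and Molm13 were unmodified cultures, whereas OCI-AML3 and K562 carried dCas9 fused to the KRAB repressor, with mCherry as a marker on the same vector, and, in addition, an sgRNA vector with a BFP marker but without a guide, and were sorted for the fluorescent markers. The vector and the line therefore cannot be told apart in the latter lines. Each line had 1 library with a peak list, so no difference between lines could be set against replicate error, and every comparison below is a description of these libraries without a test.

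H3K27ac marks active promoters and enhancers. Monocytes detect bacterial products through Toll-like receptors (TLRs), with CD14 as the protein that hands lipopolysaccharide to TLR4, and take up antibody-coated particles through Fc receptors. Several receptors of myeloid cells, some Fc receptors among them, have no signalling tail of their own. They pair with FCER1G or TYROBP, small adaptors whose immunoreceptor tyrosine-based activation motifs (ITAMs) recruit the kinase SYK. PU.1, an ETS-family transcription factor encoded by SPI1, is a known regulator of many myeloid promoters of this kind.

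The sequences just before the start sites are shown because the promoters of the genes differ in base composition and in matches to the PU.1 core. RefSeq (GRCh38.p14) promoter sequences matched 9 of the 10 genes, CLEC7A being the exception, and gave 11 windows of the 250 bases before a start, 3 of them at CX3CR1. The windows of 8 of the 9 genes were poorer in G and C than the median of 21613 windows of protein-coding genes, which was 62.0%, and the windows of 8 genes were below the median ratio of observed to expected CpG, which was 0.715. TLR2 was the gene above both medians, with 72.4% G and C and a CpG ratio of 0.794. The lowest G and C content was that of TLR8, 34.8%. The CpG ratios of the 3 CX3CR1 windows were 0.0831, 0.168 and 0.225, the first of them the lowest of the 11 windows. The ratio was 0.101 at FCGR1A, 0.256 at TYROBP and 0.268 at CD14.

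FCGR1A and FCGR2A encode Fc receptors for IgG of high and low affinity. Their windows, chr1:149782444-149782693 and chr1:161505207-161505456, both on the plus strand, shared a run of 20 bases, given in capitals, which began 52 bases before the FCGR1A start and 51 before that of FCGR2A. No other of the 21613 protein-coding windows held this run. These windows covered 15345 of the 20033 protein-coding genes, so the promoters of the rest were not searched. Among 52 pairs of windows from different members the next longest shared run was 11 bases.
FCGR1A: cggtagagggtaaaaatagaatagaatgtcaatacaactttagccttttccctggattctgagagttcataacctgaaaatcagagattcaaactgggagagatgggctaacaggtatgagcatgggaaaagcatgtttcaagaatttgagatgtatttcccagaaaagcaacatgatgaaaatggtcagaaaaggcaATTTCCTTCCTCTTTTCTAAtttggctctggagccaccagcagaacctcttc
FCGR2A: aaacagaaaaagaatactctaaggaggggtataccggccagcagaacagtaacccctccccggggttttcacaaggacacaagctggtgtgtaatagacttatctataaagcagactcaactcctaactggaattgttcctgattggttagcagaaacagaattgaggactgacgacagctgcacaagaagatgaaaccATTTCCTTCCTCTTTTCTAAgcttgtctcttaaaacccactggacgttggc

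The run contains TTCCTC, the reverse complement of GAGGAA, the core recognised by PU.1 and other ETS factors. GAGGAA was found on either strand in 6 of the 11 windows, those of CD14, TLR4, FCGR1A, FCGR2A, TYROBP and 1 of the 3 of CX3CR1, and in 23.7% of all windows. The TLR4 window (chr9:117704153-117704402, plus strand) held 4 matches, beginning 224, 171, 99 and 40 bases before the start, a number reached or passed by 0.0509% of all windows. The TYROBP window (chr19:35908296-35908545, minus strand) held 2 matches, at 230 and 10 bases before the start, and the CD14 window (chr5:140633176-140633425, minus strand) held 1, at 96 bases. The 3 sequences follow with the matches in capitals, all read along the gene.
TLR4: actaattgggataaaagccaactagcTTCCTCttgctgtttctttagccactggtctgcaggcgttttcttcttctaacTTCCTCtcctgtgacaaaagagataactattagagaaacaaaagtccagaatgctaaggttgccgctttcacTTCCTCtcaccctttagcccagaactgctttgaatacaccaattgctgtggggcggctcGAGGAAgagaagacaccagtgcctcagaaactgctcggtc
TYROBP: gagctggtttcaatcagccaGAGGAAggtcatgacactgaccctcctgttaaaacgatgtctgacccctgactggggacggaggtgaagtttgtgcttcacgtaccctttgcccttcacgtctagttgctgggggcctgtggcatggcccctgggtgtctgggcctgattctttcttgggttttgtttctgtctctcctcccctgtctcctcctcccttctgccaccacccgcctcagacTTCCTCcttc
CD14: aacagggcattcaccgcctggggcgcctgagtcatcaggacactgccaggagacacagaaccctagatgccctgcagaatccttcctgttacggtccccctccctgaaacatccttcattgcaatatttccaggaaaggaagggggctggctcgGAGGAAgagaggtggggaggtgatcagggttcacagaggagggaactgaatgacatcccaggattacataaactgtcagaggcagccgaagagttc

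Other motifs were rarer on both strands. TGANTCA, the AP-1 site, was found at CD14 alone (5.36% of all windows), TTGCNNAA, a form of the C/EBP site, at TLR8 alone (7.52%), AGATAA, the GATA site, at TLR4 and FCGR2A (7.03%), and TATAAA, the TATA box, at FCGR2A alone (8.99%). At FCGR2A the last pair of matches overlapped, beginning 151 and 146 bases before the start. These matches are letters in a reference sequence, and binding was not measured here.

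A peak within 500 bp of any annotated transcription start site (TSS) of a gene was taken as a TSS peak. By this rule 7 of the 10 genes had one in OCI-AML3, 6 in Molm13, 5 in HL-60 and 2 in K562. Among all protein-coding genes the shares, in the same order of lines, were 57.7%, 53.9%, 44.7% and 55.9%. The members' counts thus lay within 2 genes of the background in the AML lines, while in K562 the share of members, 20%, was below the background. At least 1 peak lay within 50 kb of a TSS for 10, 10, 10 and 7 genes in HL-60, Molm13, OCI-AML3 and K562, beside 75.6%, 81.8%, 82.0% and 78.6% of all genes.

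The combination of lines distinguished the members further. FCGR2A and TYROBP had a TSS peak in all 4 lines, a pattern shared by 40.5% of all genes, and CD14 and TLR8 had none in any line, as did 35.4%. TLR4 was marked in the 3 AML lines and not in K562 (2.22% of all genes), TLR2 and CX3CR1 in Molm13 and OCI-AML3 (2.78%), CLEC7A in HL-60 and Molm13 (0.0649%), FCER1G in HL-60 and OCI-AML3 (0.339%), and FCGR1A in OCI-AML3 alone (1.95%). A TSS peak in at least 2 of the 3 AML lines and not in K562 was found for 5 members and for 5.40% of all genes. With a q-value below 0.001 it was found for 3 members, TLR2, CLEC7A and CX3CR1, and for 6.31% of all genes. The opposite pattern, a TSS peak in K562 and at most 1 AML line, was found for 0 members and for 7.54% of all genes. The grid of TSS peaks shows the width and enrichment behind each call.

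**Figure D1:**
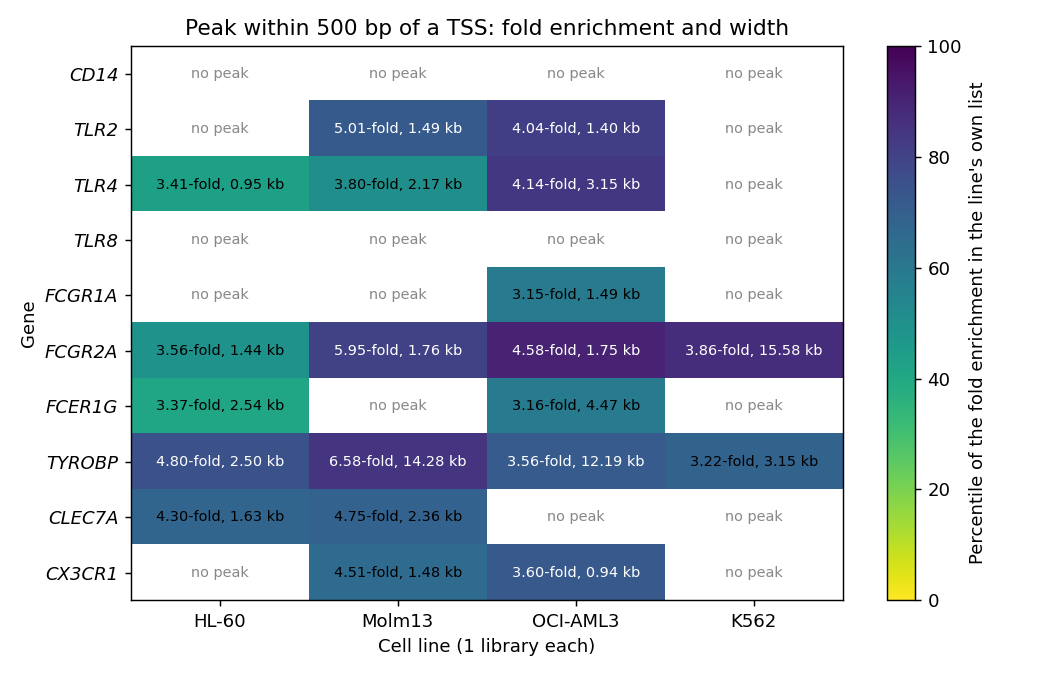
H3K27ac peaks within 500 bp of a TSS of the 10 genes (rows) in 4 lines (columns, 1 library each), with each peak's fold enrichment over local background and its width in kb. Colour gives the percentile of the fold enrichment within the line's own list. The K562 column holds 2 peaks, at FCGR2A and TYROBP, and the rows of CD14 and TLR8 are empty.

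The peak caller's fold enrichment compares a peak with its local background and is comparable within a list only, so values are given with their percentile among the peaks of the same list. TSS peaks of the members were enriched 3.15- to 4.58-fold in OCI-AML3, 3.80- to 6.58-fold in Molm13, 3.37- to 4.80-fold in HL-60 and 3.22- to 3.86-fold in K562. Their median percentile was 72.1, 70.0, 48.9 and 77.4, beside 73.3, 76.1, 74.0 and 74.5 for all peaks at an annotated TSS in these lists. In HL-60 the members' peaks were thus weaker than its TSS peaks in general, and in the other lines they lay within 7 percentile points of them. HL-60 had the shortest list, 20814 peaks against 35206 to 37606, and 3 of its 5 TSS peaks (TLR4, FCGR2A and FCER1G) had a q-value above 0.001.

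Among the pattern-recognition receptors, CD14 (chr5:140631728-140633700, minus strand) had no peak within 500 bp of its 4 annotated TSSs in any line. The nearest peak lay 4910 bp away in Molm13, with 4935 bp for OCI-AML3 and 5206 bp for HL-60, at the promoter of the neighbouring gene TMCO6. In K562 a peak of 866 bp lay 858 bp away, with an enrichment of 2.41-fold (percentile 11.1). The K562 list therefore held the peak closest to the CD14 start, and it was among the weaker peaks of that list. Peaks at TMCO6 and at the shared promoter of IK and NDUFA2 occurred in all 4 lines. Promoters of other coding genes held 4 of the 9 peaks near CD14 in K562, 3 of 7 in OCI-AML3, 3 of 8 in Molm13 and 3 of 4 in HL-60.

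TLR2 (chr4:153684070-153706260, plus strand), the receptor for bacterial lipoproteins, had TSS peaks of 1494 bp and 5.01-fold (percentile 71.6) in Molm13 and of 1398 bp and 4.04-fold (percentile 81.6) in OCI-AML3. The nearest peak was 21898 bp away in HL-60 and 70736 bp away in K562. The widest peaks around TLR2 were not at its promoter. A domain of 11.6 kb lay 33.7 to 22.1 kb upstream of the canonical start in Molm13 (6.02-fold, percentile 81.0), and one of 15.0 kb lay 35.7 to 20.7 kb upstream in OCI-AML3 (4.76-fold, percentile 92.4). HL-60 had 2 peaks of 778 and 1066 bp within the same interval, and K562 had none. Molm13 and OCI-AML3 also shared peaks at the 3′ end of the gene, 2165 and 4392 bp wide, and at the promoter of the neighbour RNF175, 3102 and 3027 bp wide.

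TLR4 (chr9:117704175-117724735, plus strand), the lipopolysaccharide receptor, had a TSS peak of 948 bp and 3.41-fold (percentile 43.0) in HL-60, 2172 bp and 3.80-fold (percentile 50.1) in Molm13 and 3146 bp and 4.14-fold (percentile 83.6) in OCI-AML3. In K562 the nearest peak was 1145145 bp away, the longest such distance among the members. The promoter peaks of HL-60 and Molm13 had q-values above 0.001. The strongest signal of the locus lay in the 3′ part of the gene in each AML line. There HL-60 had peaks of 1319 bp (4.44-fold) and 2956 bp (6.78-fold, percentile 91.0), Molm13 a single peak of 11.4 kb (5.44-fold, percentile 76.0) and OCI-AML3 peaks of 5576 and 6060 bp (5.16- and 4.88-fold, percentiles 95.8 and 93.6). These peaks began 10500 to 13329 bp after the canonical start in the 3 lines and ended 21997 to 23070 bp after it, past the end of the gene. A second annotated gene, ENSG00000285082, overlaps TLR4 and has a start at the same peak, so the promoter peak cannot be assigned to one of them.

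TLR8 (chrX:12906620-12923169, plus strand), an endosomal sensor of single-stranded RNA, had no TSS peak in any line. Its nearest peak lay 14856 bp away in OCI-AML3, 15633 bp in Molm13, 38763 bp in K562 and 43467 bp in HL-60. A region downstream of the gene was marked in all 4 lines. It held peaks of 1874 and 2965 bp in HL-60 (3.51- and 7.62-fold), of 8059 bp in Molm13 (7.77-fold, percentile 91.0), of 628 and 8610 bp in OCI-AML3 (3.20- and 5.46-fold, the latter at percentile 97.5) and, in K562, of 2965, 2791 and 7864 bp, the last at 4.52-fold and percentile 96.5. The first of these peaks began between 38.8 and 43.5 kb after the start of TLR8, in intergenic sequence, so TLR8 was a gene without a marked promoter and with a marked distal region in each of the lines.

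CLEC7A (chr12:10116777-10130258, minus strand), the beta-glucan receptor also called Dectin-1, had peaks of 1632 bp and 4.30-fold (percentile 67.2) in HL-60 and of 2362 bp and 4.75-fold (percentile 68.4) in Molm13. Neither covered a start, since they began 99 and 153 bp from the nearest TSS, inside the gene. OCI-AML3 had a peak of 875 bp at the same place, 3.50-fold (percentile 69.4), which lay 828 bp from the nearest TSS and so missed the limit. With a limit of 2000 bp CLEC7A had a peak in all 3 AML lines. In K562 the nearest peak was 81373 bp away. Molm13 and OCI-AML3 had a further peak, of 984 and 2778 bp, at OLR1, the neighbouring lectin gene for oxidised lipoprotein.

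Among the Fc receptors, FCGR2A (chr1:161505430-161524013, plus strand), which carries an ITAM in its own tail, had a TSS peak in every line. The peak was 1442 bp and 3.56-fold (percentile 48.9) in HL-60, 1761 bp and 5.95-fold (percentile 80.5) in Molm13 and 1746 bp and 4.58-fold (percentile 90.2) in OCI-AML3. In K562 it was 15584 bp wide and 3.86-fold (percentile 86.8), reaching from 5.41 kb before to 10.2 kb after the canonical start, at percentile 99.6 of peak width in that list. The start was thus marked in a narrow peak in the AML lines and in a broad domain in K562. K562 also had the most peaks around FCGR2A, 10 against 3 in HL-60 and 7 each in Molm13 and OCI-AML3, 1 of them overlapping FCGR3A (4780 bp, 4.84-fold, percentile 98.5). The promoter of the neighbouring heat shock gene HSPA6 was marked in Molm13, OCI-AML3 and K562, with peaks of 1221, 1158 and 2425 bp.

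FCGR1A (chr1:149782671-149791675, plus strand) had a TSS peak in OCI-AML3 alone, 1490 bp wide and 3.15-fold (percentile 58.3). This peak had a q-value above 0.001 and was also lost when the lists were cut to equal length. Peaks inside the gene occurred in all 4 lines, the nearest to a TSS at 597 bp in Molm13, 1512 bp in HL-60 and 1952 bp in K562. The neighbouring histone genes H2BC18 and H3C13 were marked in every line. FCGR1A lies in duplicated sequence: of the 75-base sequences within 500 bp of its canonical start, 17.9% occurred once in the assembly, and of those in its whole 50 kb surroundings, 29.7%. The corresponding values were 95.6% and 67.4% for FCGR2A, and for the other 8 genes at least 98.9% at the start and at least 92.1% in the surroundings. The study kept uniquely mapped reads of 75 bases, and how far this lowered the calls at FCGR1A was not tested.

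Of the adaptors, FCER1G (chr1:161215234-161220699, plus strand), the common gamma chain of Fc receptors, had a TSS peak of 2544 bp and 3.37-fold (percentile 40.8) in HL-60 and of 4473 bp and 3.16-fold (percentile 58.6) in OCI-AML3. Molm13 had peaks on both sides of the start, 1035 bp at 653 bp before it and 1481 bp at 687 bp after it, with a gap at the start itself. In K562 the nearest peak lay 9300 bp away, at the promoter of TOMM40L. The promoter of TOMM40L was marked in all 4 lines. A peak inside ADAMTS4, a neighbour encoding a matrix protease, was 6275 bp in Molm13 (7.41-fold), 5535 bp in OCI-AML3 (3.97-fold), 815 bp in HL-60 and 438 bp in K562.

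TYROBP (chr19:35904401-35908295, minus strand), the adaptor also called DAP12, had a TSS peak in every line. The widest was that of Molm13, 14275 bp (6.58-fold, percentile 84.9), followed by OCI-AML3 with 12194 bp (3.56-fold, percentile 71.1), K562 with 3150 bp (3.22-fold, percentile 68.0) and HL-60 with 2505 bp (4.80-fold, percentile 75.1). In Molm13 and OCI-AML3 the domain also reached the starts of HCST, which encodes the related adaptor DAP10, and of NFKBID. HL-60 had a separate peak of 7160 bp over HCST and NFKBID (4.98-fold), whereas K562 had 1629 bp at NFKBID and no peak within 500 bp of an HCST start. The difference between K562 and the AML lines at this cluster was therefore in the stretch between TYROBP and NFKBID and not at the TYROBP start.

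CX3CR1 (chr3:39263495-39281735, minus strand), the fractalkine receptor, had TSS peaks of 1481 bp and 4.51-fold (percentile 65.1) in Molm13 and of 943 bp and 3.60-fold (percentile 72.1) in OCI-AML3. The nearest peak was 7847 bp from a start in HL-60 and 2840 bp in K562. As at TLR2 and TLR4, stronger peaks lay away from the promoter. Molm13 had 3 peaks between 18.0 and 31.0 kb after the canonical start, of 1741, 4207 and 3567 bp and up to 7.70-fold (percentile 90.7), and OCI-AML3 had 3 between 17.3 and 31.5 kb, of 2638, 2875 and 2999 bp and up to 4.70-fold (percentile 91.6). HL-60 had peaks of 1278 and 722 bp there, and K562 had none.

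The extent of H3K27ac around the genes was summed over the peaks within 50 kb of any TSS. The median over the 10 genes was 12.2 kb in Molm13, 11.8 kb in OCI-AML3, 6.90 kb in K562 and 3.97 kb in HL-60, beside 3.94, 4.71, 5.60 and 1.70 kb for all protein-coding genes. Every member had more in Molm13 than in HL-60 and more in OCI-AML3 than in HL-60, which held for 73.7% and 76.7% of all genes, and the count stayed at 10 of 10 in both cases with lists of equal length. Against K562, 7 members had more in Molm13 and 8 in OCI-AML3, although this was so for 32.0% and 34.4% of all genes. With lists of equal length the counts were 6 and 8. The shares of all genes in this paragraph refer to the lists as called, and none was computed at equal length.

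The genes differed in where the extent was largest. TLR2 reached 24.1 kb in Molm13 and 30.5 kb in OCI-AML3 against 1.84 kb in HL-60 and 0 in K562, which placed it at percentiles 96.6 and 98.1 of all genes in the former lines. At FCGR2A the extent was largest in K562, 35.4 kb (percentile 97.8), against 3.06 kb in HL-60, 12.2 kb in Molm13 and 14.3 kb in OCI-AML3. CD14 was the other gene with most in K562, 15.1 kb against 5.42, 11.0 and 9.67 kb. Unlike at FCGR2A, this was not a high rank within the K562 list. The percentile of CD14 among all genes was 79.5 in K562 and 73.8 in OCI-AML3. It was higher in both unmodified lines, Molm13 (80.6) and HL-60 (83.1). For TLR4 and CLEC7A, K562 had 0 kb, and the AML lines had up to 14.8 kb at TLR4 and up to 6.53 kb at CLEC7A, both in OCI-AML3. At CLEC7A this order turned with the stricter q-value and with lists of equal length, both of which left 3653 bp in OCI-AML3 and 4140 bp in Molm13.

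**Figure D2:**
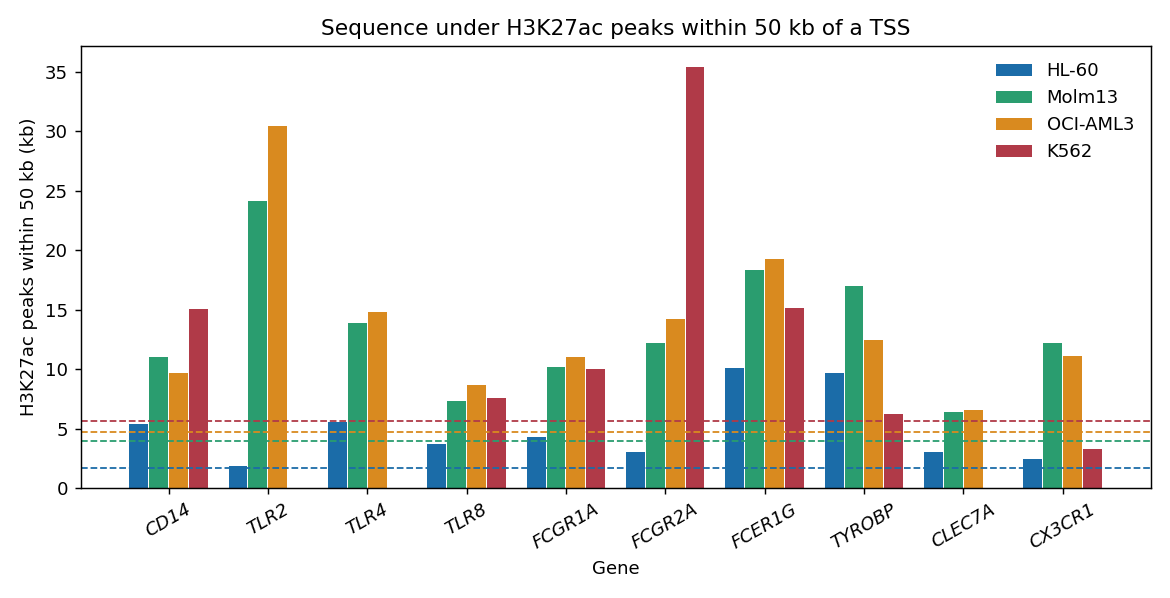
Sequence under H3K27ac peaks (kb) within 50 kb of a TSS of each gene, 1 bar a line, 1 library each. Dashed lines give the median of all protein-coding genes in the same line. TLR2 is highest in OCI-AML3 (30.5 kb), FCGR2A is highest in K562 (35.4 kb), and TLR2, TLR4 and CLEC7A have no bar in K562.

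Most of the peaks were not at the members' own starts. HL-60 had 33 peaks within 50 kb of the genes, 5 of them at a member TSS, 9 at a TSS of another protein-coding gene and 19 elsewhere. The same division was 6, 13 and 40 of 59 peaks in Molm13, 7, 12 and 37 of 56 in OCI-AML3 and 2, 13 and 27 of 42 in K562. Merged over the lines, the peaks formed 83 regions, of which 16 were found in all 4 lines and 34 in 1. Of these 34, 16 were in K562, 11 in Molm13, 7 in OCI-AML3 and 0 in HL-60. Regions at the promoters of other genes were more often in all lines, 8 of 15, than the 60 away from coding starts, of which 6 were. Molm13 and OCI-AML3 had 44 regions in common, and 24 of these were missing from K562.

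The related genes were read from lists of families and pathways, 56 genes without the members. A TSS peak was found for 38 of them in OCI-AML3 (67.9%), 34 in Molm13 (60.7%), 21 in HL-60 (37.5%) and 21 in K562 (37.5%). Molm13 and OCI-AML3 were above the background shares given above for all genes, and HL-60 and K562 were below them. A TSS peak in at least 2 AML lines and not in K562 was found for 17 of the 56, a share above the 5.40% of all genes. The opposite pattern, K562 and at most 1 AML line, was found for 4 of the 56, a share close to the 7.54% of all genes.

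Of 10 further Toll-like receptors and co-receptors, 7 were marked in OCI-AML3, 6 in Molm13, 4 in K562 and 1 in HL-60. TLR9, the sensor of CpG DNA, was marked in the 3 AML lines (6.47-fold in HL-60, percentile 89.4), and CD36 (6.31-fold in Molm13, percentile 83.1) and CD180 in Molm13 and OCI-AML3. LY96, the MD-2 partner of TLR4, was marked in OCI-AML3 (2.11-fold, percentile 1.09) and K562 (2.49-fold, percentile 17.6), at low values in both. Of 10 adaptors and kinases of the TLR pathway 5, 8, 9 and 8 were marked in HL-60, Molm13, OCI-AML3 and K562. IRAK3, an inhibitor of the pathway, was marked in the 3 AML lines (percentile 83.7 in OCI-AML3) and not in K562, and TIRAP in Molm13 and OCI-AML3 at percentiles of 0.591 and 3.56. IRAK2 was marked in K562 alone (percentile 13.1), and TICAM2 in OCI-AML3 and K562. The signalling proteins were thus marked at more genes than the receptors in every line. In K562 the counts were 8 of 10 and 4 of 10, beside 55.9% of all genes. These 4 include TLR1 and TLR6, which had the same K562 peak (3357 bp, 3.43-fold), and LY96.

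The C-type lectins and triggering receptors were marked at 3, 2, 3 and 0 of 10 genes in HL-60, Molm13, OCI-AML3 and K562. These shares, 30%, 20%, 30% and 0%, were below those of all genes in each line, 44.7%, 53.9%, 57.7% and 55.9%. CLEC12A and TREM1, a partner of TYROBP, were marked in the 3 AML lines. The percentiles in HL-60, Molm13 and OCI-AML3 were 42.7, 9.01 and 49.6 for CLEC12A and 26.7, 74.1 and 73.3 for TREM1. Other Fc receptors were marked at 1 of 7 genes in each AML line and at 2 in K562, where FCGR2C (percentile 58.5), a near copy of its neighbours, was marked and in no other line. The Fc receptor shares, 14.3% in each AML line and 28.6% in K562, were also below those of all genes. ITAM signalling genes were marked at 8, 9, 9 and 5 of 9. The K562 share, 55.6%, was near the 55.9% of all genes, whereas the AML lines were above their shares of all genes. HCST, MALT1 and PLCG2 (percentile 94.6 in OCI-AML3) were marked in the 3 AML lines and not in K562. SYK was marked in all 4 lines.

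Of 5 further genes of monocyte chemokine signalling 1, 3, 4 and 0 were marked. Their shares in Molm13 and OCI-AML3, 60% and 80%, were above those of all genes. In HL-60 and K562 they were below, at 20% and 0%. CXCR4 was marked in the 3 AML lines (percentiles 88.9, 88.6 and 87.1), and CCR1 and CCR2, the receptors that bring monocytes to inflamed tissue, in Molm13 and OCI-AML3 (CCR1 at percentiles 83.9 and 91.9). Of 5 cytosolic sensors and partners 2, 5, 5 and 2 were marked, and NLRP3, NOD2 and CASP1 were marked in Molm13 and OCI-AML3 and in neither HL-60 nor K562. The sensor share was 40% in HL-60 and K562, beside 44.7% and 55.9% of all genes. In Molm13 and OCI-AML3 it was 100%, beside 53.9% and 57.7%. Percentages for each list are given in the plot of pathway and cell type lists.

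The labels of the lines were read against marker lists. All 8 erythroid genes had a TSS peak in K562 and 1 of 8, EPOR, in each AML line. Granulocyte-monocyte progenitor genes were marked at 7, 8, 8 and 4 of 8 in HL-60, Molm13, OCI-AML3 and K562, with SPI1 in all 4 lines (percentiles 86.1, 96.8, 99.7 and 87.2) and CEBPA in the 3 AML lines. Monocyte-macrophage genes were marked at 2, 5, 6 and 3 of 8, with VCAN in no line, so that the AML lines ranked as they did for the members. Lymphoid genes were marked at 3, 2, 2 and 2 of 8, with CD3D, CD3E, CD2, CD7 and MS4A1 in none, and megakaryocyte genes at 1, 1, 0 and 1 of 4.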

How the data were processed

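H3K27ac peak lists of 4 cell lines, 1 library each, were used, with samples grouped by their titles. Per the study's methods and the submitters' processing notes, the authors sequenced 75 bases, used Trim Galore for trimming and Bowtie2 for alignment to hg38, discarded reads without a unique position and called broad peaks with MACS2 (version 2.1.1) at a q-value of 0.05. The control library given to the caller is not given in the sources used here. The deposited columns used were each peak's fold enrichment, a ratio to the local background, and its p-value and q-value on the −log10 scale, as the authors' caller wrote them. The largest q-values were 0.0947 to 0.0995, and the peaks above 0.05 made up 5.46% to 15.0% of each list. The lists give no read numbers, so the depth of each library is unknown and no interval could be given.

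The members, pathway lists and markers were chosen with earlier results of these data known. TSSs were all transcript starts of GENCODE v44, distances were counted from the nearest TSS, and the background was 20033 protein-coding genes on chromosomes 1 to 22, X and Y. Positions are 1-based and signed along the gene from the Ensembl canonical TSS. All 10 members are named, with at most 3 neighbouring genes each. Of the pathway lists, at most 4 genes a list are named by rule. They had a TSS peak in at least 2 AML lines and not K562, or the opposite, and were taken by the highest percentile. The genes EPOR, SPI1, CEBPA, SYK, FCGR3A, TLR1, TLR6, VCAN and the unmarked lymphoid genes were named after their values were seen. Some genes that the rule names are not reported here. Sequence uniqueness was counted from 75-base words on both strands of hg38 without alternate loci. The overlap code was tested on simulated peaks and gave the same genes as bedtools in each list. Python 3 scripts with NumPy and pandas were used. Alternatives were a stricter q-value, lists of equal length, other distances, the canonical TSS only, distance from the gene body, and joined peaks.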

Additional observations from a re-analysis of the deposited data

How the results depend on the processing

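Of 66 recomputed counts and medians over the 10 genes, 63 stayed within 1.5 times the reported value. With a q-value below 0.001 the genes with a TSS peak in HL-60 fell from 5 to 2, and with a limit of 2000 bp those in K562 rose from 2 to 4, by CD14 and FCGR1A. The strict q-value also lowered the genes marked in at least 2 AML lines and not in K562 from 5 to 3, and the other 5 settings gave 4 or 5; these settings were applied to that count after seeing the data. The strict limit removes peaks and the wide limit adds them by construction. The extent of H3K27ac around single genes moved by more than 1.5 times in 10 of 40 cases with the strict q-value, in 4 of 40 with lists of equal length and in 0 of 40 with the canonical TSS alone. No paired analysis was possible because a single H3K27ac list represented each line, which leaves nothing to pair. Depth is unknown, so a missing peak says that none was called in that library and not that the mark was absent.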

Other observations

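A list of dCas9 peaks from K562 cells with sgRNAs against LTR2B, a family of retroviral long terminal repeats, held no peak within 50 kb of any of the 10 genes. The nearest, 274968 bp away, was that to CX3CR1.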
